A study of Mus musculus with 9 samples.

Results

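The 40 genes described here are targets of the nuclear receptor PPAR-alpha and genes of fatty acid oxidation and ketone body formation in mouse liver. They were chosen by name as the rows of the mRNA table that carry 1 of 40 listed symbols, and all 40 were found among its 21870 genes. All 40 were also among the 11557 genes that reached 0.5 FPKM in at least 3 libraries and were tested. Livers came from wild-type C57 BL6 mice, 8 weeks old and weighing 20 g on average. The dmPGE2+APAP mice were injected in the peritoneum with 300 μg/kg of dmPGE2, a long-lived analogue of prostaglandin E2, 1 h before acetaminophen. The APAP mice were given acetaminophen (APAP, a painkiller that injures the liver in overdose) at 500 mg/kg by the same route, and both groups had this dose. The control mice were given saline. Livers were collected 6 h after APAP, with 3 libraries in each of the 3 groups, and the labels do not say whether a library is 1 mouse or a pool. The labels do not define the name BC on the control columns, and the remaining 6 columns bear the names of the treatments, so BC was taken as saline.

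PPAR-alpha is a nuclear receptor that binds fatty acids and, paired with RXR, switches on genes for burning fat. In the liver it is most active in fasting, when fat from adipose tissue reaches hepatocytes and is oxidised in mitochondria and peroxisomes. Part of the acetyl-CoA formed leaves the liver as ketone bodies. The receptor is known to bind a direct repeat of the hexamer AGGTCA with 1 base between the copies. Its best known mouse liver targets include the Cyp4a and Acot genes, which are induced strongly by drugs that activate it.

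The bases just before the gene start were examined because the members moved together in 1 library described below. RefSeq promoters on GRCm38.p6 were found for 34 of the 40 members, as 38 entries, and the 250 bases before each start were searched on both strands. None was found for Acaa2, Decr1, Cyp4a10, Cyp4a14, Cyp4a31 and Vnn1. The search therefore leaves out most of the Cyp4a genes, whose gap in that library was widest. The exact repeat AGGTCANAGGTCA was in 0 of the 38 member promoters and in 0.0335% of all 32851 promoters of the same length. A relaxed form, AGGNCANAGGNCA, was found in 1 member, Fabp1, and in 0.338% of all promoters. The hexamer AGGTCA, which also lies inside the exact repeat, was in 7 members (Acadm, Acadvl, Acot4, Cd36, Cpt1a, Creb3l3 and Fabp1) and in 14.0% of all promoters. The 4 sequences below are given because Fabp1 holds the relaxed repeat, Acot4 the hexamer nearest to a start after that of Fabp1, and Acot2 and Pdk4, described below among the genes that rose, hold neither. Capitals mark the matches, which lie on the opposite strand and are printed as the reverse complement of the searched letters.
Fabp1, chr6:71199629-71199878, plus strand: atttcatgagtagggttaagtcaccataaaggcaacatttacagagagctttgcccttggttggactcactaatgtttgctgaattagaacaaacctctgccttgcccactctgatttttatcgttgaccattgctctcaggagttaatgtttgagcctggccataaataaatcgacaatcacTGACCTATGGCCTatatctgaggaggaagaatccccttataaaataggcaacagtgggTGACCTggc
Acot4, chr12:84038129-84038378, plus strand: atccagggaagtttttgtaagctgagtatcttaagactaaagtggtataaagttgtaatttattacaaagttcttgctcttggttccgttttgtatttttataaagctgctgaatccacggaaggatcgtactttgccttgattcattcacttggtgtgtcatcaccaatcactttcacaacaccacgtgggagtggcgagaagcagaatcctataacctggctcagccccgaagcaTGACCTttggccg
Acot2, chr12:83987611-83987860, plus strand: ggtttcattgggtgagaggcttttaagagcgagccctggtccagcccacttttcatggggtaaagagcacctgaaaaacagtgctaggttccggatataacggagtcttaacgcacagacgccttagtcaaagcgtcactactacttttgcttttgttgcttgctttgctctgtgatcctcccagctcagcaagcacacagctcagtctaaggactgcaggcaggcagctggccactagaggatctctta
Pdk4, chr6:5496279-5496528, minus strand: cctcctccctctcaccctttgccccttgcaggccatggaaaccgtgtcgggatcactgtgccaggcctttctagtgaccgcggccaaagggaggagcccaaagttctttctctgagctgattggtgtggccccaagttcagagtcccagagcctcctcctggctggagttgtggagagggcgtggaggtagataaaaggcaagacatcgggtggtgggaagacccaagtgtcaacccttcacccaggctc
The relaxed repeat of Fabp1 spans −67 to −55 from the RefSeq start, and a further hexamer lies at −9 to −4. The hexamer of Acot4 lies at −13 to −8. Such a match is a string of letters and not a measured binding site.

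The unit is FPKM, fragments scaled by transcript length and by the mapped fragments of the library, so levels may be compared between genes per length. Values below are the deposited FPKM of libraries 1, 2 and 3 of each group, in that order. Fold changes and their standard errors (SE) come from FPKM rescaled between libraries and log2-transformed after adding 0.1. They were tested with limma across all 11557 genes with Benjamini-Hochberg adjustment at 0.05. The p-values measure the spread between these libraries. The smallest p that an exact two-sided permutation test allows for 3 against 3 libraries is 0.1. A p from limma can be lower because limma assumes a distribution for the values, and it also shares its estimate of the spread among genes. The sum of FPKM was between 371958 and 393938 per library, and the number of reads behind a value is unknown. The hepatocyte markers of the list, Alb and Apoa1 among them, summed to between 44909 and 46801 FPKM in control livers. In treated livers they summed to between 48859 and 56722 FPKM. Alb alone had between 21428 and 31737 FPKM per library. Kidney and muscle markers summed to at most 0.108 FPKM.

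Control 3 stood apart from controls 1 and 2 over these genes. After rescaling between libraries it was the lowest of all 9 in 35 of the 40 members, or 87.5%, against 19.8% of all genes tested. In 16 members, or 40%, it was at least 2-fold below the mean of the other controls on the log2 scale, against 2.22% of all genes tested. No member was at least 2-fold higher in control 3. The median difference was −0.76 on the log2 scale for the members and −0.00 for all genes tested. Of 117 other genes of the pathway, taken up further on, 42.7% were lowest in control 3 and 19.7% highest. At least 2-fold lower there were 11.1% of these other genes, and their median difference was −0.12. Members took up 1.03% of the FPKM of control 3 and between 2.15% and 3.04% of that of the other 8 libraries. Most of this gap came from Cyp4a14 and Cyp4a10 alone. These are descriptions with no test, since control 3 is 1 library. The members were also chosen with earlier results of these data known, so their contrast with all genes is no independent evidence.

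The Cyp4a genes showed the widest gap. They encode cytochrome P450 enzymes that hydroxylate the far end of a fatty acid, the entry to omega oxidation. Cyp4a14 (chromosome 4, 115486200 to 115496142), the most abundant member, had 2080.3, 2122 and 1962 FPKM in dmPGE2+APAP livers, 2772, 1989 and 2095 FPKM in APAP livers and 2248, 2502 and 10.4 FPKM in control livers. The other 8 libraries shared a narrow band, and control 3 was 236-fold below the other controls after rescaling. Cyp4a10 (chromosome 4, 115518264 to 115533649) had 1611, 1708 and 1685 FPKM in dmPGE2+APAP livers, 1980.2, 1704 and 1735 FPKM in APAP livers and 1804, 1934 and 47.2 FPKM in control livers, and its gap was 41.4-fold. Cyp4a31 was 10.8-fold and Cyp4a32 2.33-fold lower in control 3 than in the other controls. The genes lie side by side on chromosome 4 and resemble one another. Of the 100-base windows of the longest transcript, 20.1% in Cyp4a32, 12.7% in Cyp4a10, 8.22% in Cyp4a31 and 0% in Cyp4a14 recurred in another of the 4, so the level of each but Cyp4a14 may hold reads of a neighbour.

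The acyl-CoA thioesterases, which split fatty acyl-CoA into free fatty acid and CoA, followed. Acot1, the cytosolic enzyme (chromosome 12, 84009490 to 84018371), had 44.2, 62.9 and 49.7 FPKM in dmPGE2+APAP livers, 69.4, 45.0 and 62.1 FPKM in APAP livers and 35.3, 42.2 and 4.38 FPKM in control livers. Control 3 lay 9.03-fold below the other controls. The gaps of the other thioesterases were 5.41-fold for Acot2, 3.82-fold for Acot3 and 3.39-fold for Acot4. Vnn1, a pantetheinase and known target of the receptor, was 5.67-fold lower, and Ehhadh, the bifunctional enzyme of peroxisomal oxidation, 4.81-fold lower. Further members at least 2-fold lower were Acadm (2.55-fold), Slc22a5 (2.45-fold), Aldh3a2 (2.23-fold), Pex11a (2.10-fold), Ech1 (2.07-fold) and Acaa1b (2.03-fold). At the other end, 5 members were not lowest in control 3 after rescaling. Ppara was highest of all 9 libraries there, Fabp1 and Bdh1 lay above both other controls, Etfb lay between them, and Cd36 was below both but not below every APAP library. In the deposited FPKM, control 3 was also not the lowest library for Acaa2, Aldh3a2, Hadh, Etfa, Acads and Acsl1.

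**Figure D1:**
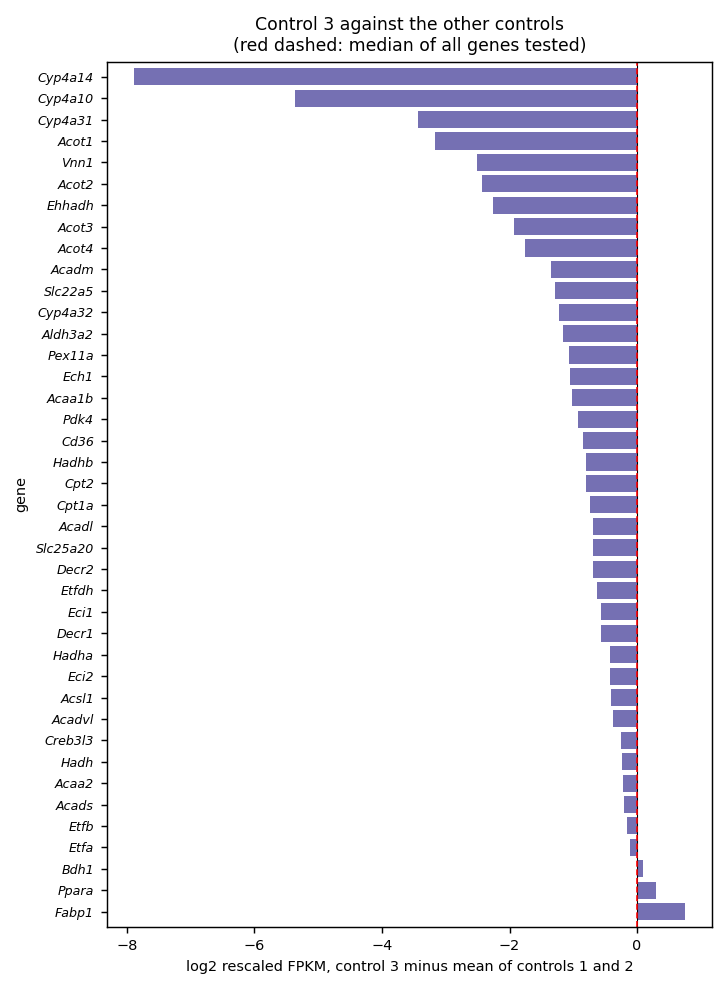
Each bar is 1 of the 40 genes and shows its log2 rescaled FPKM in control 3 minus the mean of controls 1 and 2; the red dashed line is the median of all genes tested. 37 bars point to lower values, Cyp4a14 and Cyp4a10 farthest, and the bars of Bdh1, Ppara and Fabp1 point to higher values.

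Genes outside the list also set control 3 apart. It had 562 tested genes at least 2-fold away from the rest of its group, against 130 to 261 in each other library. The summed FPKM of 16 lipogenesis genes was 2401 in control 3, against between 818 and 1129 in the treated livers and 748 and 850 in controls 1 and 2. Scd1 alone made up 1320.0 FPKM of it in control 3, and the list's median log2 difference of control 3 from controls 1 and 2 was 1.32. Elovl5 was lower in control 3, at 92.0 FPKM, than in every other library. In deposited FPKM, Fads2 lay between controls 1 and 2. The summed FPKM of 15 gluconeogenesis and fasting genes was 1757 in control 3, against between 4175 and 6141 in the treated livers and 3520 and 4063 in controls 1 and 2. Pck1 and Tat carried most of that difference, and the list's median was −0.42. Irs2 and Ppp1r3c were higher in control 3 than in controls 1 and 2, and G6pc lay between them. The part of these differences in the levels of the members was not tested. For the 40 members, counts, medians and calls in the comparisons with control livers are therefore given with and without control 3.

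The APAP libraries, too, kept much of their order across members. Places within a group were counted for the members only, so the order may not be particular to them. Control 2 was the highest of its group in 29 members and dmPGE2+APAP 1 the lowest of its group in 20. APAP 1 was the highest of its group in 32 of the 40 members and APAP 2 the lowest in 24. Ehhadh shows the width of this spread, with 374, 632 and 506 FPKM in dmPGE2+APAP livers, 999, 286 and 639 FPKM in APAP livers and 375, 448 and 89.2 FPKM in control livers. The 10 neutrophil markers of the list summed to between 5.37 and 11.6 FPKM in dmPGE2+APAP livers, to 42.4, 10.2 and 10.8 FPKM in APAP livers and to between 2.64 and 6.94 FPKM in control livers, with the defining marker Ly6g at 0 in all APAP libraries. The 8 platelet and erythroid markers summed to 788 FPKM in APAP 1, against 472 and 341 FPKM in APAP 2 and 3, most of it from the globin genes Hbb-bs and Hba-a1. The platelet markers Pf4, Ppbp, Itga2b and Gp1bb were highest in APAP 3, while Gp9 was highest in APAP 1 and lowest of its group in APAP 3. Their part in the levels of the members was not tested.

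**Figure D2:**
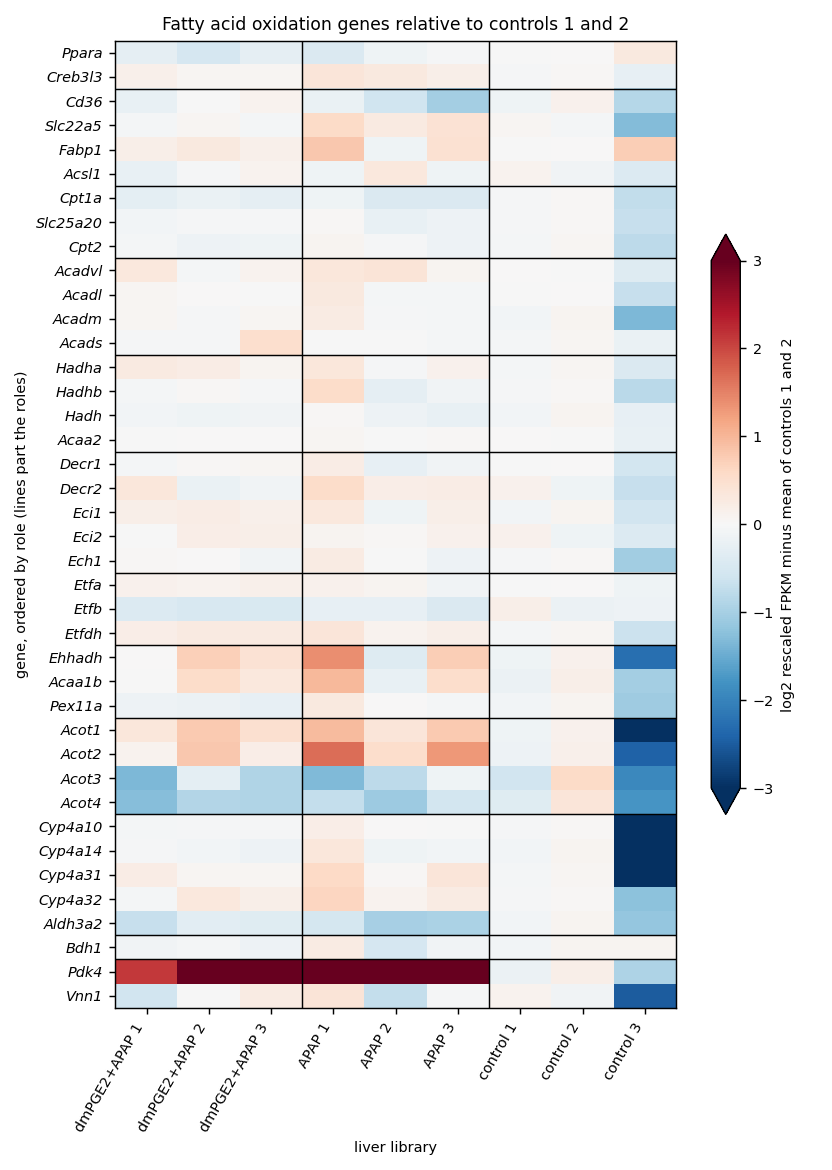
Rows are the 40 genes in the order of their roles and columns the 9 liver libraries; colour gives log2 rescaled FPKM minus the mean of controls 1 and 2, with values past 3 in either direction drawn in the end colour. The column of control 3 is mostly blue, the treated columns are pale for most genes, and Pdk4 is red in all 6 treated libraries.

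The comparison of APAP with control livers asks how the genes stood 6 h after the overdose. Pdk4, Creb3l3 and Acot2 were higher in APAP livers, and no member was lower. That is 3 of 40 members higher, where 11.7% of all genes tested were higher, and 0 of 40 lower, where 9.24% of all genes were lower. In either direction 21% of all genes passed. At an unadjusted p under 0.05 there were 9 of 40 members and 4107 of all 11557 genes. The median log2 fold change was 0.30 over the members and −0.01 over all genes tested. Of the genes that passed, 55.9% were higher, and 31.6% with the deposited FPKM left unscaled, since rescaling moved every log2 fold change by 0.13. Without control 3 the members' median was 0.05, with 4 members higher and 2 lower, against 11.4% of all genes higher, 8.29% lower and 19.7% in either direction. In whole liver, fewer cells of a type and less RNA per cell cannot be told apart.

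Pdk4 encodes the kinase that switches off pyruvate dehydrogenase and so spares glucose when fat is burned. It lies on chromosome 6, 5483351 to 5496309 (GRCm38), and had 9.46, 30.4 and 29.0 FPKM in dmPGE2+APAP livers, 77.4, 62.9 and 106 FPKM in APAP livers and 2.06, 2.63 and 1.23 FPKM in control livers. Every APAP library was above every dmPGE2+APAP library, and every dmPGE2+APAP library was above every control. Pdk4 rose 44.3-fold in APAP livers over control livers (log2 fold change 5.47, SE 0.44, limma adjusted p = 0.000144). Without control 3 the rise was 35.6-fold (log2 fold change 5.15, SE 0.46, limma adjusted p = 0.000376). It passed in this comparison under all 20 alternatives tried, with adjusted p between 2.68e-05 and 0.00147.

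Acot2, the mitochondrial thioesterase (chromosome 12, 83987861 to 83993873), had 11.4, 19.2 and 12.3 FPKM in dmPGE2+APAP livers, 34.6, 15.4 and 26.9 FPKM in APAP livers and 10.4, 13.1 and 2.17 FPKM in control livers. The APAP libraries were all above the controls, and control 3 was far below its group. It rose 3.93-fold (log2 fold change 1.98, SE 0.61, limma adjusted p = 0.0486), and 2.23-fold without control 3 (log2 fold change 1.16, SE 0.33, limma adjusted p = 0.0411). Its adjusted limma p ran from 0.0334 to 0.139 over the alternatives and missed the threshold in 14 of 20, among them the removal of control 1 or of any 1 treated library. Acot1 passed only without control 3, at 1.62-fold (log2 fold change 0.69, SE 0.19, limma adjusted p = 0.0404). The pair share sequence, with 16.5% of the 100-base windows of Acot1 found in Acot2, so part of either change may belong to the other.

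The peroxisomal thioesterases gave values on the other side. Acot4 (chromosome 12, 84038379 to 84048601) had 11.1, 15.1 and 14.6 FPKM in dmPGE2+APAP livers, 16.6, 12.7 and 18.8 FPKM in APAP livers and 23.1, 38.2 and 9.10 FPKM in control livers. All APAP libraries were below controls 1 and 2 and above control 3. Its log2 fold change was −0.20 (SE 0.44) with all controls, and it fell without control 3 to 0.577 of the level in controls 1 and 2 (log2 fold change −0.79, SE 0.23, limma adjusted p = 0.048). Without control 2, which had the highest value, the log2 fold change was 0.27, so the sign depended on the control library left out. Acot3, with a mean of at most 4.67 FPKM in any group, had a log2 fold change of −0.10 (limma adjusted p = 0.921) and −0.75 without control 3 (limma adjusted p = 0.274). The 4 thioesterase genes are neighbours on chromosome 12.

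**Figure D3:**
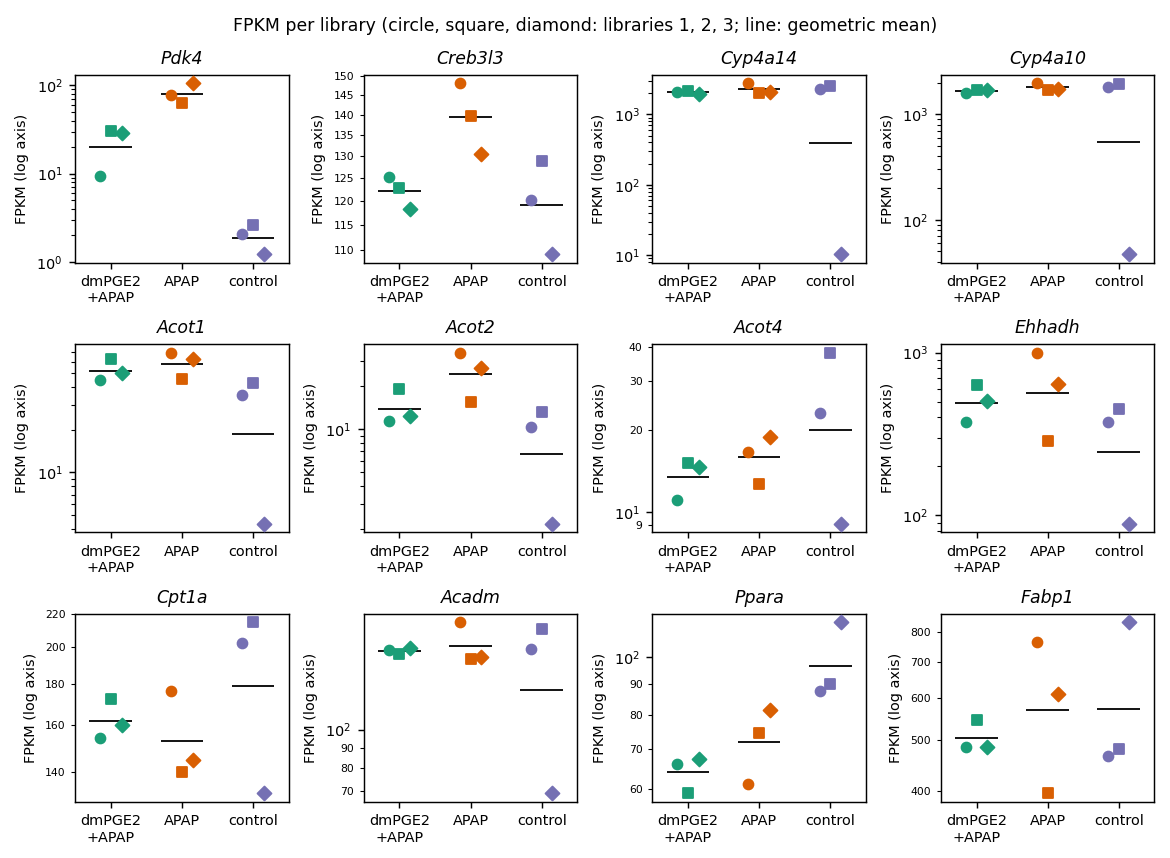
FPKM of 12 genes in each library on log axes that differ between panels; circles, squares and diamonds are libraries 1, 2 and 3 and lines are geometric means. Control 3 lies far below the other 8 libraries for Cyp4a14, Cyp4a10 and Acot1, and Pdk4 separates the 3 groups.

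Among the regulators, Creb3l3 encodes a membrane-bound liver transcription factor that works with PPAR-alpha. It had 125, 123 and 118 FPKM in dmPGE2+APAP livers, 148, 139.7 and 131 FPKM in APAP livers and 120.1, 129 and 109 FPKM in control livers. The APAP libraries were all above the other 6. It rose 1.28-fold over control livers (log2 fold change 0.36, SE 0.10, limma adjusted p = 0.0382), a call lost without control 3 (log2 0.27, limma adjusted p = 0.0701). It was also lost without control 1, APAP 1, APAP 2 or any dmPGE2+APAP library, and the adjusted p ran from 0.035 to 0.112 over 20 alternatives. Ppara, the receptor itself (chromosome 15, 85734983 to 85802819), had 66.2, 59.1 and 67.4 FPKM in dmPGE2+APAP livers, 61.3, 74.6 and 81.4 FPKM in APAP livers and 87.8, 90.1 and 114 FPKM in control livers. All treated libraries were below all controls. The change did not pass in APAP livers (log2 fold change −0.29, SE 0.13, limma adjusted p = 0.154) and came close in dmPGE2+APAP livers (log2 fold change −0.45, SE 0.13, limma adjusted p = 0.0501). Without control 3 the log2 fold changes were −0.36 in dmPGE2+APAP livers (limma adjusted p = 0.103) and −0.20 in APAP livers (limma adjusted p = 0.317).

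Fatty acid uptake, binding and activation gave 0 calls in APAP livers with all controls and 1 without control 3. Slc22a5, the carnitine transporter of the plasma membrane, had 23.4, 26.6 and 23.7 FPKM in dmPGE2+APAP livers, 37.3, 29.4 and 33.9 FPKM in APAP livers and 27.8, 26.0 and 11.4 FPKM in control livers. Every APAP library was above every other library, and control 3 was the lowest. It passed as higher in APAP livers without control 3 (log2 fold change 0.42, SE 0.11, limma adjusted p = 0.0294), or without control 1 (log2 1.09), while with all controls the log2 fold change was 0.85 (limma adjusted p = 0.0767). Fabp1, the fatty acid binding protein of hepatocytes and the most abundant gene of this group, had 486, 546 and 486 FPKM in dmPGE2+APAP livers, 764, 397 and 611 FPKM in APAP livers and 466, 481 and 834 FPKM in control livers. Its groups overlapped, with control 3 the highest library and APAP 2 the lowest, and no change passed (log2 fold change 0.13, SE 0.26, limma adjusted p = 0.755), nor without control 3 (log2 fold change 0.38). Cd36, a fatty acid transporter, had 12.5, 15.2 and 16.0 FPKM in dmPGE2+APAP livers, 13.0, 9.77 and 7.41 FPKM in APAP livers and 14.7, 17.9 and 9.37 FPKM in control livers. It lay lower in all APAP libraries than in controls 1 and 2, and the log2 fold change without control 3 was −0.61 (limma adjusted p = 0.0873). Acsl1, the main long-chain acyl-CoA synthetase, ranged over all libraries from 267 to 396 FPKM and did not pass.

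The carnitine shuttle, which carries long chains into mitochondria, gave 0 calls in APAP livers. Cpt1a, its rate-controlling step, had 154, 172 and 159.9 FPKM in dmPGE2+APAP livers, 176, 140.0 and 145 FPKM in APAP livers and 202, 215 and 132 FPKM in control livers. All APAP libraries were below controls 1 and 2 and above control 3. The log2 fold change was −0.09 with all controls (95% interval −0.53 to 0.34) and −0.34 without control 3 (−0.60 to −0.09, limma adjusted p = 0.0654). Slc25a20, the carrier of the inner membrane, and Cpt2, which hands the chain back to CoA, had log2 fold changes of 0.12 and 0.23 with all controls. Both were negative without control 3, at −0.12 for Slc25a20, whose APAP libraries all lay below controls 1 and 2, and −0.04 for Cpt2, and neither passed in either fit.

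The mitochondrial spiral itself gave 0 calls among 8 genes in either fit. Its acyl-CoA dehydrogenases, which act on very long (Acadvl), long (Acadl), medium (Acadm) and short chains (Acads), had log2 fold changes from 0.04 to 0.50 with all controls and from −0.03 to 0.26 without control 3. Acadvl, the most abundant of them, had 188, 153 and 166 FPKM in dmPGE2+APAP livers, 198, 201 and 167 FPKM in APAP livers and 170.0, 167 and 136 FPKM in control livers. APAP 3 alone kept the APAP and control groups from separating, and the log2 fold change was 0.39 (SE 0.15, limma adjusted p = 0.0894) and 0.26 without control 3. The later steps are run by the trifunctional protein (Hadha and Hadhb, neighbours on chromosome 5), Hadh and the thiolase Acaa2. Their log2 fold changes ran from −0.03 to 0.34, and from −0.11 to 0.14 without control 3. Acaa2 was among the steadiest members, with 359, 382 and 371 FPKM in dmPGE2+APAP livers, 386, 362 and 386 FPKM in APAP livers and 408, 399 and 364 FPKM in control livers. Its 95% interval for APAP over control was −0.13 to 0.31 on the log2 scale, and −0.17 to 0.20 without control 3.

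Enzymes that rearrange double bonds of unsaturated chains (Decr1, Decr2, Eci1, Eci2 and Ech1) gave 0 calls, with log2 fold changes from 0.14 to 0.55, and from −0.05 to 0.32 without control 3. Ech1, the most abundant of them, had 179.7, 188 and 166 FPKM in dmPGE2+APAP livers, 216, 177 and 166 FPKM in APAP livers and 189.9, 202 and 98.9 FPKM in control livers, and only control 3 lay outside the range of the treated libraries. In electron transfer, Etfa and Etfb form the flavoprotein that takes electrons from the dehydrogenases and Etfdh passes them to ubiquinone. Etfb (chromosome 7, 43444083 to 43457800) had 133, 132 and 131 FPKM in dmPGE2+APAP livers, 152, 150.3 and 134 FPKM in APAP livers and 220.0, 173 and 183 FPKM in control livers. In the deposited FPKM the 3 groups did not overlap, with dmPGE2+APAP lowest and control highest, while after rescaling dmPGE2+APAP 1 lay above APAP 3. It did not pass in APAP livers (log2 fold change −0.26, SE 0.12, limma adjusted p = 0.145), nor without control 3 (log2 fold change −0.31). Etfa and Etfdh had log2 fold changes of 0.08 and 0.43, and of 0.04 and 0.21 without control 3, and did not pass.

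Of the peroxisomal genes, Ehhadh, the thiolase gene Acaa1b and Pex11a, which acts in peroxisome division, 0 passed. Acaa1b had 509, 795 and 655 FPKM in dmPGE2+APAP livers, 1045, 446 and 776 FPKM in APAP livers and 507, 646 and 295 FPKM in control livers, with APAP 1 highest and control 3 lowest. Its log2 fold change was 0.77 (95% interval −0.05 to 1.59) and that of Ehhadh 1.34 (−0.09 to 2.77). Without control 3 these were 0.42 and 0.58.

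In omega oxidation the 4 Cyp4a genes had log2 fold changes from 0.74 to 2.67 in APAP over control, none of which passed. Without control 3 they ran from 0.04 to 0.33. For Cyp4a14 the log2 fold change was 2.67 (95% interval −1.30 to 6.64) with control 3 and 0.04 (−0.32 to 0.40) without it. Aldh3a2, the fatty aldehyde dehydrogenase of the same route (chromosome 11, 61223417 to 61267464), had 81.1, 109 and 103 FPKM in dmPGE2+APAP livers, 92.9, 65.6 and 69.5 FPKM in APAP livers and 136, 154 and 67.9 FPKM in control livers. APAP livers lay below controls 1 and 2, and control 3 was within their range in the deposited FPKM. It fell without control 3 to 0.561 of the level in controls 1 and 2 (log2 fold change −0.83, SE 0.17, limma adjusted p = 0.0124), and with all controls the change did not pass (log2 fold change −0.45, SE 0.30, limma adjusted p = 0.316).

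Bdh1, the last enzyme of ketone body formation, had 62.3, 67.4 and 61.8 FPKM in dmPGE2+APAP livers, 81.6, 47.8 and 64.6 FPKM in APAP livers and 69.9, 79.3 and 83.0 FPKM in control livers. The APAP libraries overlapped the controls, and the change did not pass (log2 fold change −0.15, SE 0.16, limma adjusted p = 0.543), nor without control 3 (log2 fold change −0.13). Vnn1 had 24.0, 36.9 and 42.9 FPKM in dmPGE2+APAP livers, 48.2, 21.8 and 36.2 FPKM in APAP livers and 42.5, 36.7 and 7.21 FPKM in control livers, and only control 3 lay away from the other libraries. Its log2 fold change was 0.72 with control 3 and −0.12 without it, and neither passed.

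**Figure D4:**
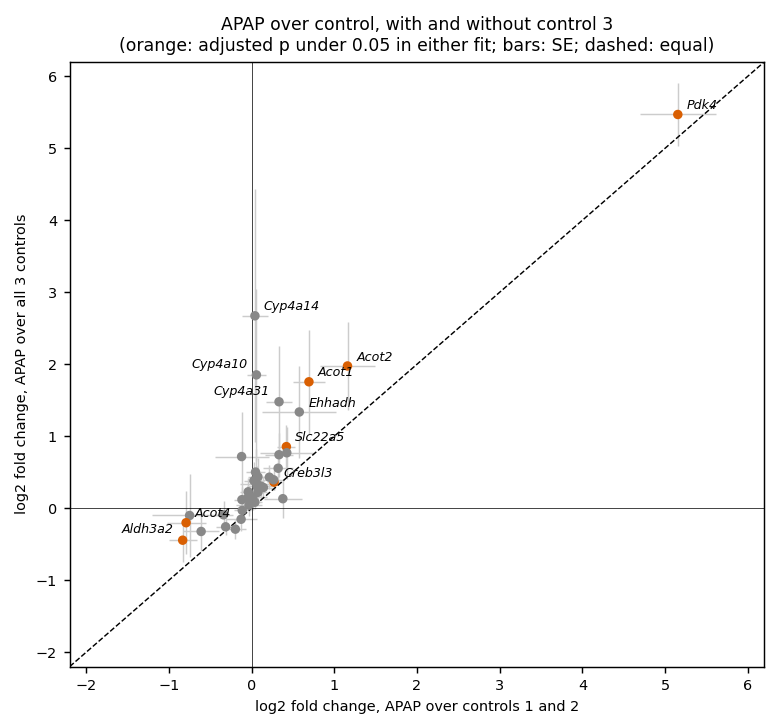
Each point is 1 of the 40 genes, with its log2 fold change of APAP over controls 1 and 2 on the x axis and over all 3 controls on the y axis; bars are SE and orange points passed in either fit. Points above the dashed line of equality are higher in the fit with control 3, Cyp4a14, Cyp4a10 and Cyp4a31 by most, while Pdk4 lies near the line at 5.15 and 5.47.

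The comparison of dmPGE2+APAP with APAP livers asks what the pretreatment added. Of the 40 members 0 passed with limma in either direction, where 0% of all genes passed, and 1 member had an unadjusted p under 0.05. Over all 11557 genes 1080 had an unadjusted p under 0.05 and 0 passed. That member was Pdk4, which was lower in every dmPGE2+APAP library, at 0.255 of the APAP level. Its log2 fold change was −1.97 (SE 0.44, 95% interval −2.97 to −0.97, limma adjusted p = 0.285), which did not pass. The members' median log2 fold change was −0.08, against 0.00 for all genes tested.

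No control library is in this contrast, but control 3 enters the spread that limma estimates for each member, and for every member other than Bdh1 the SE was larger with it. The median SE of the members was 0.24 on the log2 scale with control 3 and 0.12 without it, against 0.15 and 0.14 over all genes tested. For 27 of the 40 members the 95% interval lay within 2-fold in both directions, and for 35 of 40 without control 3, against 88.4% and 90.5% of all genes tested. Without control 3 again 0 members passed, where 0.00875% of all genes passed, and 6 of 40 members had an unadjusted p under 0.05, against 1333 of all 11429 genes tested in that fit. These were Pdk4, Slc22a5 (log2 −0.44), Cd36 (0.57), Acot2 (−0.79), Pex11a (−0.27) and Aldh3a2 (0.38), with limma adjusted p between 0.189 and 0.402. By deposited FPKM, every dmPGE2+APAP library was below every APAP library in 5 members, Pdk4, Slc22a5, Pex11a, Etfb and Creb3l3, and above in 0. Of all genes tested 8.93% were fully below and 7.11% fully above. For Creb3l3 the log2 fold change was −0.18 (95% interval −0.42 to 0.05). Over the genes of the carnitine shuttle and the mitochondrial spiral, the 95% intervals without control 3 lay between −0.51, the lower end for Hadhb, and 0.50, the upper end for Acads, on the log2 scale. They were −0.14 to 0.32 for Cpt1a and −0.26 to 0.21 for Acadm. Other intervals were −0.46 to 0.19 for Cyp4a14 and, wider, −1.11 to 0.72 for Ehhadh.

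The comparison of dmPGE2+APAP with control livers shares its controls with the comparison of APAP with control, so the 2 are not independent. In it 1 of 40 members was higher, where 8.76% of all genes were higher, and 0 of 40 lower, where 7.55% were lower and 16.3% passed in either direction. Of the genes that passed, 53.7% were higher, and 28.5% with the deposited FPKM left unscaled. Pdk4 rose 11.3-fold (log2 fold change 3.49, SE 0.44, limma adjusted p = 0.00135), and 9.07-fold without control 3 (log2 fold change 3.18, SE 0.46, limma adjusted p = 0.00369). Ppara and Etfb narrowly missed the threshold as lower, with log2 fold change −0.39, SE 0.12, limma adjusted p = 0.0504 for Etfb, which passed under 5 of 20 alternatives. Without control 3 the count was 1 higher and 2 lower, against 8.73% and 6.43% of all genes, 15.2% in either direction. Etfb then fell to 0.735 of the level in controls 1 and 2 (log2 fold change −0.44, SE 0.12, limma adjusted p = 0.0424) and Acot4 to 0.494 (log2 fold change −1.02, SE 0.23, limma adjusted p = 0.0251). Without control 2 the log2 fold change of Acot4 was 0.043. The members' median log2 fold change was 0.24 with control 3 and −0.00 without it.

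The other genes of the pathway were read from a list of 120, of which 117 were tested. In dmPGE2+APAP over control 17 were higher and 8 lower, and 15 lower with the FPKM left unscaled. Without control 3 these were 18 and 8. Over all genes tested 8.76% were higher and 7.55% lower in that comparison. In APAP over control 22 were higher and 10 lower, and 22 lower with the FPKM left unscaled. Without control 3 they were 21 and 11. Of all genes tested 11.7% were higher and 9.24% lower, and the counts per list below are to be read beside these shares. In dmPGE2+APAP over APAP 0 passed with limma, as did 0% of all genes. An unadjusted p under 0.05 was found for 14 of the 117, and for 1080 of all 11557 genes. Of the genes listed as further PPAR-alpha targets, 9 of 26 tested were higher and 0 lower in dmPGE2+APAP livers, and 10 higher and 0 lower in APAP livers. Of 28 other mitochondrial genes 1 was higher and 3 lower in dmPGE2+APAP livers, and 2 higher and 4 lower in APAP livers. Of 37 other peroxisomal genes 2 were higher and 2 lower in each treated group, and of 8 ketone body genes 2 were higher and 0 lower in each. Of 18 regulators and cofactors 3 were higher and 3 lower in dmPGE2+APAP livers, and 6 higher and 4 lower in APAP livers.

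Hilpda and Cidec, the targets that rose most, act at the lipid droplet. Hilpda, which inhibits the lipase that empties droplets, had 82.9, 30.1 and 12.3 FPKM in dmPGE2+APAP livers, 134, 91.2 and 171 FPKM in APAP livers and 1.30, 1.29 and 1.35 FPKM in control livers. It rose 24.5-fold in dmPGE2+APAP livers (limma adjusted p = 0.00111) and 99.2-fold in APAP livers (limma adjusted p = 0.000173), each over control livers. The log2 fold change in dmPGE2+APAP livers, 4.61, was 3.90 without dmPGE2+APAP 1 and 5.28 without dmPGE2+APAP 3. Cidec, which fuses droplets, had 16.2, 26.6 and 20.0 FPKM in dmPGE2+APAP livers, 105, 71.2 and 62.6 FPKM in APAP livers and 3.46, 3.83 and 0.585 FPKM in control livers. It rose 10.6-fold in dmPGE2+APAP livers, or 5.96-fold without control 3, and 39.9-fold in APAP livers, or 22.4-fold without control 3. Of the droplet coat genes, Plin5 rose 3.62-fold in dmPGE2+APAP livers and 3.73-fold in APAP livers, and Plin2 rose 1.60-fold in dmPGE2+APAP livers and 3.06-fold in APAP livers. Plin4 did not pass in dmPGE2+APAP livers (limma adjusted p = 0.0687). In APAP livers it rose 3.98-fold, or 2.46-fold without control 3, and did not pass without APAP 2 or APAP 3. G0s2, an inhibitor of the main droplet lipase, was at 0.884 of the control level in dmPGE2+APAP livers (limma adjusted p = 0.763) and rose 2.93-fold in APAP livers (limma adjusted p = 0.0131). Set against APAP directly, G0s2 had a log2 fold change of −1.73 in dmPGE2+APAP livers (limma adjusted p = 0.229) and did not pass. Plin4, Cidec and Fabp4 are also expressed in fat cells, and of 9 fat cell markers 3 were tested. Their summed level, almost all of it from Pck1, which hepatocytes also express, was 1557 to 2078 FPKM in dmPGE2+APAP livers, 1219 to 1549 FPKM in APAP livers and 704 to 1997 FPKM in control livers. Of the defining markers, Adipoq and Plin1 were at most 0.137 and 0.0576 FPKM in any library, and Lep was at 0 in all 9.

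Further targets rose, secreted ones among them. Fgf21, the fasting hormone of the liver, had 12.2, 7.25 and 4.65 FPKM in dmPGE2+APAP livers, 23.9, 16.7 and 13.2 FPKM in APAP livers and 1.56, 3.66 and 1.17 FPKM in control livers. It rose 4.16-fold in dmPGE2+APAP livers, a call lost without dmPGE2+APAP 1, dmPGE2+APAP 2 or control 1, and 9.60-fold in APAP livers. Angptl4, an inhibitor of lipoprotein lipase, rose 1.69-fold in dmPGE2+APAP livers and 2.71-fold in APAP livers. Fabp4, a fatty acid binding protein, rose 3.01-fold in dmPGE2+APAP livers and 2.12-fold in APAP livers, and Ucp2, a mitochondrial carrier, rose 2.01-fold in dmPGE2+APAP livers. Slc16a6, which exports ketone bodies from hepatocytes in zebrafish, had 8.47, 7.98 and 3.68 FPKM in dmPGE2+APAP livers, 13.5, 13.9 and 12.8 FPKM in APAP livers and 1.65, 1.96 and 1.76 FPKM in control livers. It rose 3.73-fold in dmPGE2+APAP livers and 7.83-fold in APAP livers.

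Among regulators, Ppargc1a, the coactivator of PPAR-alpha, rose 2.57-fold in APAP livers, and 1.85-fold without control 3, and did not pass without APAP 1, APAP 3 or control 1. Pparg, the fat-storing relative of the receptor, had 1.15, 3.03 and 2.48 FPKM in dmPGE2+APAP livers, 0.716, 0.847 and 0.595 FPKM in APAP livers and 2.76, 3.05 and 3.09 FPKM in control livers and fell in APAP livers to 0.290 of the control level (limma adjusted p = 0.00381). Lpin1, a coactivator and phosphatidate phosphatase, rose 2.76-fold and Foxo1, a fasting transcription factor, 1.90-fold in dmPGE2+APAP livers. The peroxisome assembly gene Pex10 fell to 0.553 and the thioesterase gene Acot11 to 0.430 of the control level in dmPGE2+APAP livers, where Pmp22, held on the list of peroxisomal genes but known for peripheral myelin, rose 2.23-fold. The call of Pex10 was lost without dmPGE2+APAP 2, dmPGE2+APAP 3 or control 1, and that of Pmp22 without dmPGE2+APAP 1, dmPGE2+APAP 2, control 1 or control 2.

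**Figure D5:**
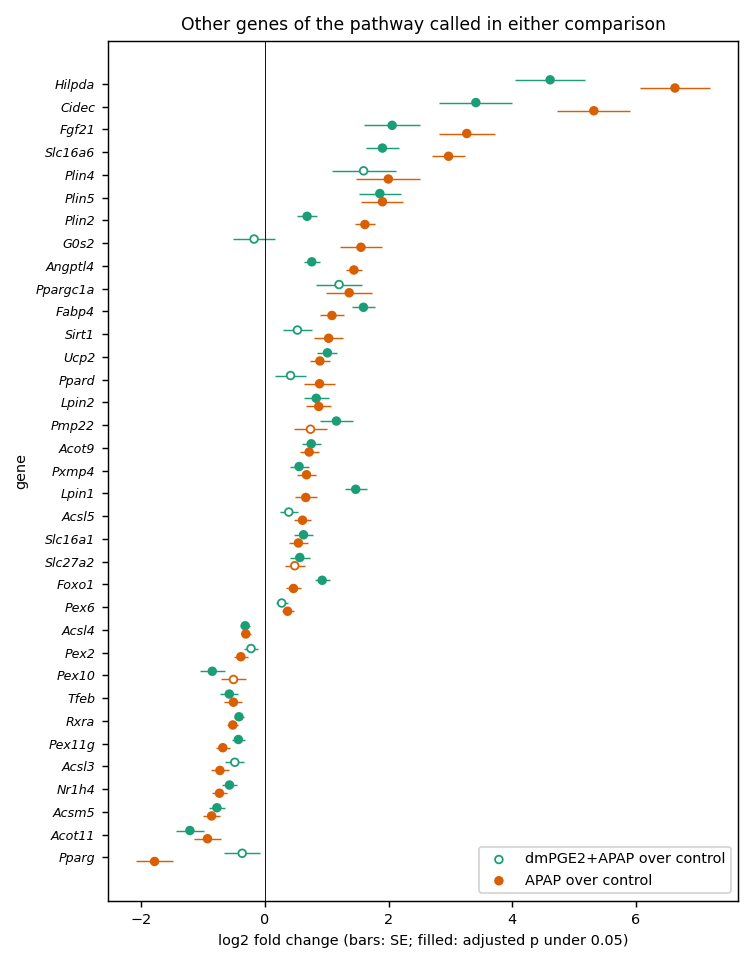
Log2 fold changes over control for the listed genes outside the 40 that passed in at least 1 of 2 comparisons, dmPGE2+APAP in green above APAP in orange; bars are SE and filled points passed. Hilpda, Cidec, Fgf21 and Slc16a6 lie farthest to the right in both comparisons and farthest to the left lie Acot11 for dmPGE2+APAP and Pparg for APAP.

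The lncRNA table holds 92 entries from 32 of the 40 members, 81 of which were tested. By the GENCODE M21 annotation 56 are transcripts with a retained intron and 35 other processed transcripts, and 1 is not in that annotation. In APAP over control 3 passed, where 3.66% of all 22984 entries tested passed. Hadh-202, from the dehydrogenase gene Hadh (chromosome 3, 131245101 to 131272024), had 0.117, 0.205 and 0.291 FPKM in dmPGE2+APAP livers, 0.204, 0.165 and 0.155 FPKM in APAP livers and 0.847, 1.06 and 0.696 FPKM in control livers. Every treated library was below every control. It fell in dmPGE2+APAP livers (log2 fold change −1.66, SE 0.30, limma adjusted p = 0.0298), the 1 entry of a member to pass there, where 1.81% of all passed. It also fell in APAP livers (log2 fold change −1.81, SE 0.30, limma adjusted p = 0.0159). The whole-gene value of Hadh itself did not pass in APAP livers (log2 fold change −0.03, SE 0.11, limma adjusted p = 0.869). Hadha-209, a transcript of the trifunctional protein gene, had 0.189, 0.123 and 0.331 FPKM in dmPGE2+APAP livers, 0.127, 0.292 and 0.208 FPKM in APAP livers and 0.703, 0.929 and 0.653 FPKM in control livers and fell in APAP livers (log2 fold change −1.51, SE 0.34, limma adjusted p = 0.0435). Pdk4-202 had 0.0950, 0.596 and 0.488 FPKM in dmPGE2+APAP livers, 1.01, 1.17 and 1.33 FPKM in APAP livers and 0.101, 0.177 and 0.0780 FPKM in control livers and rose in APAP livers (log2 fold change 2.54, SE 0.45, limma adjusted p = 0.019), as did its gene. Each of these 4 calls was lost when control 1, among other single libraries, was left out. Without control 3 the fall of Hadh-202 was the 1 entry that passed in APAP livers (adjusted p = 0.0334 by limma), where 1.49% of all entries passed. In dmPGE2+APAP livers 1 entry passed without control 3, as lower, where 0.769% of all did. The levels printed here are near or below 1 FPKM, and reads of such transcripts may also be counted for the whole gene.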

How the data were processed

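Liver RNA-seq libraries, 3 in each of 3 groups, were analysed from the authors' deposited tables. Reads were aligned with HISAT2 to GRCm38 (mm10), per the submitters' processing notes; the counter is not given in the sources used here. The deposited FPKM values are per gene for mRNA and per transcript for lncRNA. The authors also deposited columns named as read counts, which were treated as a score and not used in tests. In the lncRNA table every such score of at least 1000 equalled FPKM times the genomic span in kilobases times a library constant (60.0 to 78.5) within 1%, and the mRNA scores sum to between 296778853 and 399305070 per library, so no count test was run and the depth behind a value is unknown.

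Genes with at least 0.5 FPKM in 3 or more libraries (lncRNA entries with 0.1) were rescaled by an unweighted trimmed mean of log ratios (30% of ratios and 5% of abundances trimmed), and log2(FPKM + 0.1) was fitted with 3 group means in limma 3.58.1 (R 4.3.3) with an abundance trend. All p-values are two-sided and adjusted over the whole table, with a threshold of 0.05. A fold change on this scale understates changes of low genes. The fit was tested on simulated data. Promoters are RefSeq sequences of GRCm38.p6, and positions are those of the deposited tables on GRCm38.

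The members and gene lists were chosen with earlier results of these data known. Values per library are given for members that passed in any comparison with or without control 3 and for the most abundant member of each role, and at most 12 other pathway genes are named per comparison by size of change. Alternatives were each library left out, other pseudocounts, filters and scalings, fits of only the groups compared, and a replicate block. Where 1 library is left out, the group of 2 is assumed to vary like the others.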

Additional observations from a re-analysis of the deposited data

How the results depend on the processing

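The number of reads behind a value is unknown. The SE of the members' log2 fold changes, the same in all 3 comparisons with all 9 libraries, had a median of 0.24 and ran from 0.09 to 1.75, so the size of change that could pass differed widely between members. Pdk4 passed in both comparisons with control under all 20 alternatives, with log2 fold changes of 2.98 to 4.03 in dmPGE2+APAP livers and 4.90 to 5.70 in APAP livers.

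In APAP over control the 3 members higher became 1 with no filter on low values and 1 with only the 2 groups fitted, and 1 to 4 with a library left out (1 without APAP 1, APAP 2 or any dmPGE2+APAP library). The 0 members lower became 2 with no rescaling and 1 with quantile normalization, and 0 to 2 with a library left out (2 without control 3). The 10 other pathway genes lower became 22 with no rescaling, and 6 to 11 with a library left out (6 without APAP 1 or control 2). All genes called numbered 2424, and 1546 (without APAP 3) to 2256 with a library left out. The 3 lncRNA-table entries of members became 0 to 3 (0 without APAP 1, APAP 3 or control 1).

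In dmPGE2+APAP over APAP the 0 genes called became 2 with only the 2 groups fitted, and 0 to 33 with a library left out (33 without dmPGE2+APAP 1). Other pathway genes called became 1 lower with only the 2 groups fitted, and 0 to 1 in either direction with a library left out.

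In dmPGE2+APAP over control the 0 members lower became 1 with a filter of 1 FPKM, 2 with no rescaling, 2 with the median log ratio, 2 with quantile normalization, and 0 to 2 with a library left out. All genes called numbered 1885, and 1025 (without dmPGE2+APAP 2) to 1822 with a library left out. The 17 other pathway genes higher became 10 (without dmPGE2+APAP 2) to 18, and the 8 lower became 15 with no rescaling and 5 to 8 with a library left out. The 1 lncRNA-table entry became 0 with the replicate block and 0 to 1 with a library left out.

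The log2 fold change of Acot4 was −0.79 to 0.27 in APAP over control and −1.02 to 0.043 in dmPGE2+APAP over control with a library left out, positive without control 2 in both. With a pseudocount of 1 FPKM the log2 fold change over control was 3.92 for Hilpda and −0.58 for Acot11 in dmPGE2+APAP livers, and 5.90 for Hilpda, 4.69 for Cidec, 1.37 for Plin4 and −1.12 for Pparg in APAP livers. Libraries with the same number did not deviate together, with correlations from −0.117 to 0.0706, so the numbers were read as names. In 7 of 18 cases a library correlated best with its own number in another group. Under the replicate block the count of members higher in APAP livers was again 3, with Decr2 (limma adjusted p = 0.0384) and without Acot2 (limma adjusted p = 0.0573). The cause of these moves was not tested.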
